A study of Homo sapiens with 84 samples.

Results

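The mitotic kinesins described here are the products of 10 genes, KIF11, KIF14, KIF15, KIF18A, KIF20A, KIF20B, KIF23, KIF2C, KIF4A, and KIFC1. They were taken by name, as the rows of the deposited count files whose Ensembl identifiers carry these symbols in GENCODE release 29, and make up 10 of the 58395 genes counted. The genes were chosen with earlier results of these data known. Their reads were followed in 43 libraries of Kyse30, a line of esophageal squamous carcinoma cells, and in the 20 libraries of FaDu, a cell line from a carcinoma of the hypopharynx, that carry the replicate numbers 3 and 4. The series holds 84 libraries in all. By the rule that chose the samples, 21 FaDu libraries with the replicate numbers 1 and 2 were left out. They entered only the alternative noted in the closing section. All cells, controls included, had been deprived of serum before and during the treatments. Cells were left untreated for 0, 6, or 72 h or were treated for 6 or 72 h with the Fc region of an immunoglobulin, with EpEX (the extracellular domain of EpCAM, fused to Fc), with EGF at 1.8 nM (EGFlow), with EGF at 9 nM (EGFhigh), or with EGF and EpEX together (EGFhigh + EpEX). The labels give no EGF dose for the combination, which the study's methods name as EGFhigh. Untreated cells were the control for EGF and Fc the control for EpEX and the combination. Kyse30 groups held 3 or 4 libraries and FaDu groups 1 or 2. Each cell line stands for 1 tumor, and the labels do not say whether replicates were separate cultures, so p-values measure the spread between libraries.

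Kinesins are motor proteins that convert ATP into force on microtubules. In a dividing cell they separate the spindle poles, align the chromosomes on the spindle, and build the bundle of microtubules on which the daughter cells part. KIF11 and KIF15 push the poles apart and KIFC1 pulls in the opposite direction. KIF2C and KIF18A shorten or cap microtubule ends at the chromosomes, and KIF4A travels on the chromosome arms. KIF23, KIF20A, KIF20B, and KIF14 act on the central spindle and the midbody during cytokinesis. Most of these genes are transcribed mainly in the late phases of the cell cycle, and resting cells hold little of their RNA. In bulk samples, fewer dividing cells and less RNA per cell cannot be told apart.

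Genes of this class commonly carry a short promoter element, the cell cycle genes homology region (CHR, TTTGAA), often downstream of CCAAT boxes. Resting cells occupy it with a repressor complex, and dividing cells with MYBL2 and FOXM1. The RefSeq promoter windows (GRCh38.p14, 250 bases before to 50 after each start) held 1 window for each of the 10 genes, and all 10 held the element or a variant of it. For 6 of the 10 the sequence is printed 5′ to 3′ on the strand of the gene, from 90 bases before to 30 bases after the start, with every CHR or variant in capitals. TTCAAA is TTTGAA read on the other strand.
KIF11 (chr10:92593040-92593159, plus strand): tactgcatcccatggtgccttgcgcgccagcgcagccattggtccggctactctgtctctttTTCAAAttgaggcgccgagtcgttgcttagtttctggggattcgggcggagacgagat
KIF15 (chr3:44761704-44761823, plus strand): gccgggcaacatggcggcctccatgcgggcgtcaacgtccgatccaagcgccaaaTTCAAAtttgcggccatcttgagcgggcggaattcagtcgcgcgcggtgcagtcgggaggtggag
KIF4A (chrX:70290014-70290133, plus strand): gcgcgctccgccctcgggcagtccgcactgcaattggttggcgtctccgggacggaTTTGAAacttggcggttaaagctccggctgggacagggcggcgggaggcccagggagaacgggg
KIF23 (chr15:69414259-69414378, plus strand): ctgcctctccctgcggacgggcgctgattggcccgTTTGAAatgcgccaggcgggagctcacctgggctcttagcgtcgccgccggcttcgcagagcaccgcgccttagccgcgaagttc
KIF20A (chr5:138179022-138179141, plus strand): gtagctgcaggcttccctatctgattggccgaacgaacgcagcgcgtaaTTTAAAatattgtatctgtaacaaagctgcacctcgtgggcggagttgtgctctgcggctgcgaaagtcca
KIF2C (chr1:44739747-44739866, plus strand): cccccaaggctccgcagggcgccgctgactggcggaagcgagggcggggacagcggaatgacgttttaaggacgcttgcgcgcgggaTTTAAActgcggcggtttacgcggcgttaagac

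TTTGAA was found on either strand of 8 of the 10 windows, against 5324 of all 35116 RefSeq windows (15.2%). Of the 28 windows of 20 transport and ciliary kinesin genes, 1 held it (3.57%). KIF20A and KIF2C lacked TTTGAA and held TTTAAA instead, at bases -41 to -36 and -3 to 3. Counting also its known variants, which are TTCGAA, the form TTTAAA just named, and the form TTGGAA, all 10 windows had a match on either strand, against 34.9% of all windows. In KIF20B another TTTGAA followed the first without a gap and lies beyond the bases at which the printed windows end. CCAAT was found on either strand of 8 of the 10, KIF15 and KIF2C being the exceptions, against 34.6% of all windows. Of 20 windows of 18 genes of kinesin partners and spindle proteins, 15 held TTTGAA and 15 held CCAAT. The CCAAT boxes and the CHR forms share no base in these windows. In KIFC1, TTGGAA (bases -2 to 4) is followed without a gap by TTTGAA on the other strand (bases 5 to 10). A match is a match of letters, and binding was not measured in these libraries.

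**Figure D1:**
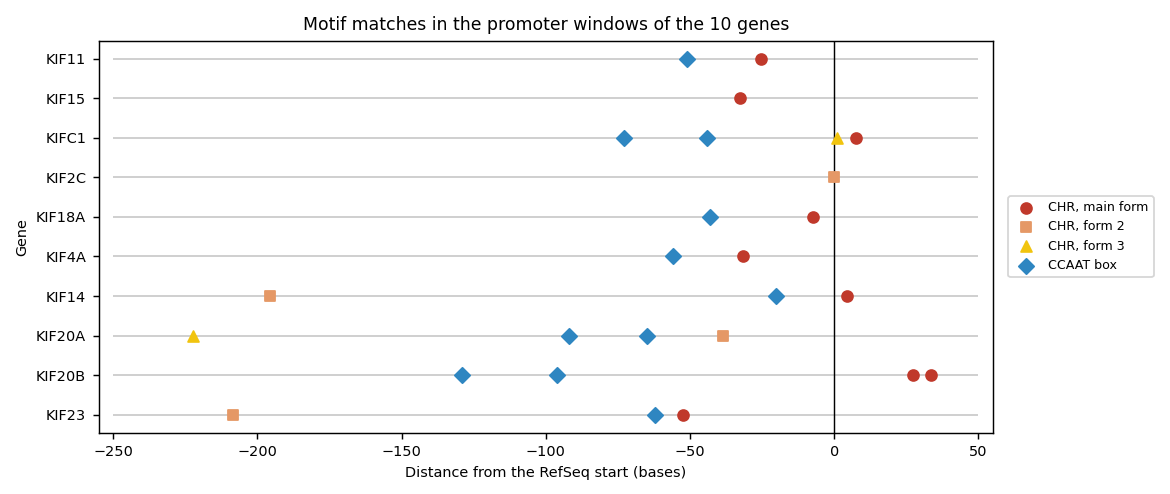
Positions of the CHR (TTTGAA, red circles), of its TTTAAA form (form 2, orange squares) and its TTGGAA form (form 3, yellow triangles), and of CCAAT boxes (blue diamonds) in the RefSeq windows of the 10 genes, in bases from the start (vertical line). The 8 genes with red circles have their TTTGAA between bases -55 and 36, and KIF20A and KIF2C have TTTAAA.

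Total counts on genes ranged from 1944948 to 11759799 per Kyse30 library and from 6217938 to 12442349 per FaDu library with the replicate numbers 3 and 4. In QuantSeq, reads come from the 3′ end of each transcript, so counts are not divided by length, and levels are given as counts per 1000000 reads (CPM). The base of the CPM was the reads on genes that passed the filter on low counts, scaled by the TMM factor of the library (trimmed mean of M values, edgeR). On this scale a count of 3 reads corresponded to 0.240 to 1.56 CPM in Kyse30 libraries and 0.238 to 0.470 CPM in those of FaDu, and the 10 genes had at least 9 reads in each of the 63 libraries. Intervals and floors of this kind cover counting error only, and whether PCR copies were counted once is not stated. EPCAM, CDH1, TP63, SOX2, and EGFR were above 0 in every library of both lines, whereas the basal keratins were low in Kyse30, with medians of 2.10 CPM for KRT5 and 0.688 CPM for KRT14. Of the 8 markers of leukocytes, fibroblasts, and endothelium, the fibroblast collagen COL1A1 was above 0 in all 43 Kyse30 libraries, at 6.96 to 28.0 CPM (median 14.1). In FaDu it was at 4.84 to 12.7 CPM (median 8.71). The other 7 had medians of at most 0.520 CPM in Kyse30, PECAM1 being at 0 in 43 of the 43 libraries, CD3E in 41, PTPRC in 35, COL3A1 in 33, VWF in 31, PDGFRB in 11, and CD68 in 6.

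Summed over the 10 genes, the level in Kyse30 was highest at the start and lowest after EGFhigh for 72 h. The sum was 735, 849, and 1083 CPM in the 3 untreated libraries at 0 h. At 6 h it was 552, 617, and 694 CPM in untreated cells and 563, 696, and 785 CPM with Fc. All treated libraries at 6 h lay below these control libraries, at 473 to 515 CPM with EpEX, 326 to 466 CPM with EGFlow, 338 to 416 CPM with EGFhigh, and 326 to 454 CPM with EGFhigh + EpEX. At 72 h the controls were at 332, 347, and 420 CPM in untreated cells and 376, 397, and 462 CPM with Fc. At that time the sum was 104, 120, and 213 CPM with EGFhigh, below all other libraries. EGFhigh + EpEX gave 252, 305, and 356 CPM, EpEX 288, 368, and 442 CPM, and EGFlow 232 to 395 CPM. In the order of group means, EGFhigh at 72 h did not overlap with its neighbor, EGFhigh + EpEX at 72 h, and the groups from EGFlow at 6 h down to EGFhigh + EpEX at 72 h overlapped each with the next.

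**Figure D2:**
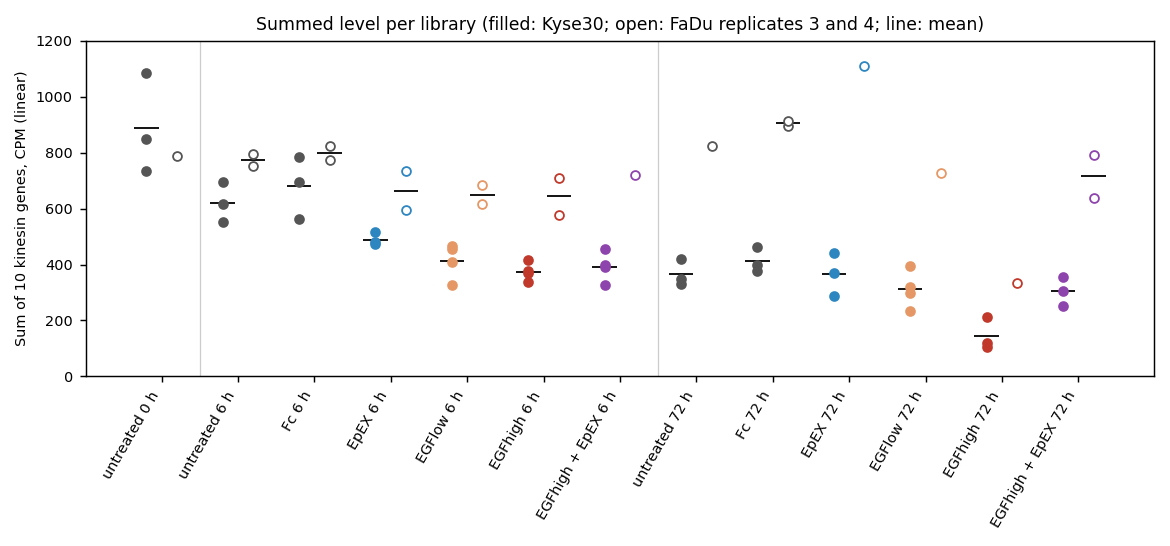
Summed level of the 10 genes in CPM (vertical axis, linear, from 0) in each library by condition. Filled points are Kyse30 libraries, open points FaDu libraries of replicates 3 and 4, and lines group means. In both lines the lowest point is EGFhigh at 72 h, at 104 to 213 CPM in Kyse30 and 335 CPM in FaDu.

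Whether the strong EGF stimulus acts on the mitotic kinesins was examined by comparing EGFhigh with untreated Kyse30 cells at 72 h (3 libraries each). The means of all 10 genes were lower with EGFhigh, and 7 of them fell by the rule used for all genes (edgeR quasi-likelihood test, adjusted p at most 0.05 and log2FC beyond 0.5), against 3.16% of the 15350 genes tested that were called lower. The median log2FC of the 10 was -1.44, and that of all genes -0.03. In 8 of the 10 the 3 treated libraries lay below the 3 untreated ones, against 12% of all genes. KIF15, KIF20B, KIF2C, and KIFC1 are in the list of EMT-associated genes that the study selected on these samples, so their direction here is not independent evidence for that list. As the 10 genes were chosen with earlier results of these data known, the share called is a description and no independent support.

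Of the motors that set the distance of the spindle poles, KIF11 (the plus-end motor that slides antiparallel microtubules apart and the target of monastrol) had 6.95, 10.6, and 17.03 CPM with EGFhigh and 32.1, 32.3, and 39.9 CPM in untreated cells. It fell by 1.58 on the log2 scale (SE 0.30, adjusted p = 0.000581, edgeR), and the groups did not overlap. KIF15, another plus-end motor that can stand in for KIF11, had 1.60, 5.28, and 6.76 CPM against 13.4, 16.2, and 23.9 CPM. This was a log2FC of -1.93 (SE 0.38, adjusted p = 0.000736, edgeR), with the lowest treated library resting on 9 reads. KIFC1, a minus-end motor that gathers spindle poles, had 12.0, 13.6, and 20.6 CPM against 29.04, 38.7, and 46.0 CPM. Its log2FC was -1.30 (SE 0.38, adjusted p = 0.0286, edgeR). All 3 motors of this kind thus fell, with treated and untreated libraries apart.

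Of the 3 genes acting at chromosomes and microtubule ends, KIF2C fell and the other two did not pass. KIF2C, a depolymerase of the centromere, had 10.7, 16.1, and 20.5 CPM with EGFhigh and 43.4, 51.8, and 53.6 CPM without, a log2FC of -1.64 (SE 0.27, adjusted p = 7.55e-05, edgeR). KIF18A, which dampens chromosome movement at the spindle equator, had 2.50, 4.85, and 10.4 CPM against 9.41, 13.1, and 15.1 CPM. The groups overlapped, through EGFhigh replicate 1, and the log2FC of -1.06 (SE 0.46) did not pass (adjusted p = 0.18, edgeR). KIF4A, a chromokinesin that also limits the length of the central spindle, had 13.4, 13.4, and 43.9 CPM against 30.3, 35.6, and 54.2 CPM. Here too EGFhigh replicate 1 lay among the untreated libraries, and the log2FC of -0.75 (SE 0.32) did not pass (adjusted p = 0.17, edgeR). KIF4B, a near-identical copy of KIF4A on another chromosome, had at most 5 reads (0.445 CPM) in any library used here. Reads that match both copies may be missing from either count, so KIF4A counts are uncertain.

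Of the motors of cytokinesis, KIF23 (the kinesin subunit of centralspindlin) had treated libraries within 1 CPM of each other. It had 8.20, 8.42, and 8.86 CPM with EGFhigh against 25.6, 29.4, and 43.3 CPM in untreated cells. The log2FC was -1.94 (SE 0.28, adjusted p = 1.04e-05, edgeR), which with that of KIF15 was the largest in size among the 10 in the fit of all groups. KIF20A, which carries the chromosomal passenger complex to the central spindle, had 2.57, 6.57, and 6.95 CPM against 12.1, 16.03, and 19.5 CPM. It fell by 1.59 on the log2 scale (SE 0.42, adjusted p = 0.0149, edgeR). KIF20B, a midbody protein, was the most abundant of the 10 in CPM, at 30.1, 34.6, and 64.3 CPM against 80.1, 106, and 112 CPM. Its log2FC was -1.20 (SE 0.28, adjusted p = 0.00541, edgeR). KIF14, which brings citron kinase to the midbody, had 5.71, 12.4, and 18.5 CPM against 21.9, 26.2, and 30.1 CPM. Its groups did not overlap, yet the log2FC of -1.08 (SE 0.38) did not pass (adjusted p = 0.0863, edgeR).

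EGFhigh replicate 1 was the highest of the 3 treated libraries for 9 of the 10 genes, KIF20A being the exception, and its sum of 213 CPM compares with 104 and 120 CPM in replicates 3 and 4. When each of the 6 libraries was left out in turn, 5 to 9 of the 10 were called, and KIF11, KIF15, KIF23, and KIF2C were called each time. Without EGFhigh replicate 1, the calls were 9, with KIF4A at a log2FC of -1.57, KIF18A at -1.74, and KIF14 at -1.502 added and KIF20A lost (adjusted p = 0.127, edgeR). KIF20A was also lost without untreated replicate 1 (adjusted p = 0.0781, edgeR) and KIF20B without EGFhigh replicate 4 (adjusted p = 0.0568, edgeR). KIFC1 was lost without any 1 of untreated replicates 1 and 2 and EGFhigh replicates 3 and 4, at an adjusted p of 0.0843 to 0.128 (edgeR). With these 2 groups alone in the fit, KIF11, KIF23, and KIF2C were called. In this comparison, EGFR fell from 4100 to 2003 CPM (log2FC -1.03), KRT17 rose from 12.6 to 58.6 CPM (log2FC 2.22), and CD68 rose from 0.409 to 8.25 CPM. The CD68 call was lost in 5 of 6 fits without a library and the KRT17 call in 2. Of the 8 markers of other cell types, 2 passed the filter on low counts and CD68 alone was called, and their summed level was 26.5 to 34.5 CPM with EGFhigh and 11.2 to 15.3 CPM in untreated cells. The part of these markers in the result was not tested.

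**Figure D3:**
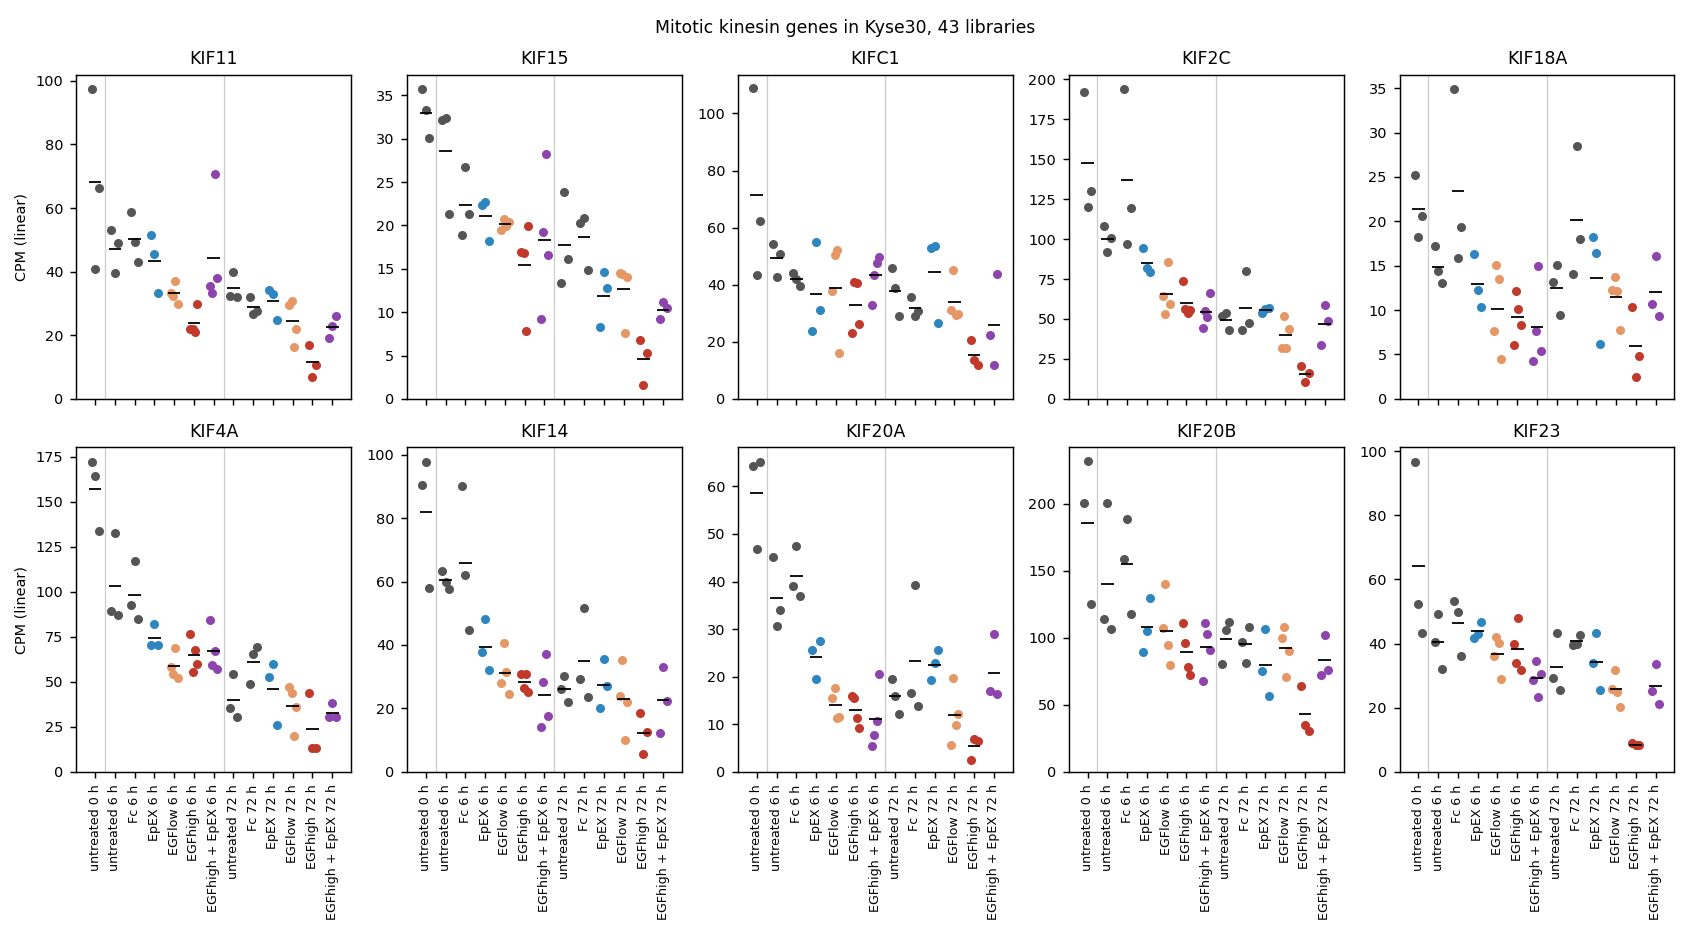
Level of each of the 10 genes in CPM (vertical axes, linear, from 0) in the 43 Kyse30 libraries, by condition. Points are libraries and lines group means; gray verticals separate 0, 6, and 72 h. For KIF23 the 3 libraries of EGFhigh at 72 h lie at 8.20 to 8.86 CPM, under all others.

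The dependence on dose was taken from EGFlow and EGFhigh at 72 h. EGFlow (4 libraries) against untreated cells left all 10 means lower by 0.10 to 0.49 on the log2 scale, and none passed the test, as was the case for all 15350 genes (0%). For 5 of the 10 (KIF14, KIF18A, KIF20B, KIF4A, and KIFC1) the sign changed in at least 1 fit without a library. No member of the 10 reached an unadjusted p of 0.05 in this comparison, where 439 genes of the whole table did (2.86%), and DESeq2 called none of the 10. Compared directly, EGFhigh was lower than EGFlow for KIF23 (log2FC -1.59), KIF15 (-1.46), KIF2C (-1.33), KIF20B (-1.10), and KIF11 (-1.09), 5 of the 10 against 1.71% of all genes called lower. KIF23 had 20.1 to 31.9 CPM in the 4 EGFlow libraries, above the 8.20 to 8.86 CPM of EGFhigh. The other 5 had log2FC values of -1.17 to -0.63 and did not pass. Without 1 of the 7 libraries, 2 to 6 of the 10 were called, and KIF23 and KIF2C were called each time. KIF11 was lost without EGFlow replicate 1 or 2 or EGFhigh replicate 3 or 4, KIF20B without EGFlow replicate 2 or EGFhigh replicate 3 or 4, and KIF15 without EGFhigh replicate 3, at adjusted p-values of 0.058 to 0.174 (edgeR).

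EpEX was added to ask how far it counters EGFhigh. With both ligands, the means of the 10 genes at 72 h were above those of EGFhigh alone, with a median log2FC of 0.98 beside 0.03 for all genes, and 4 of the 10 rose, against 1.86% of all genes called higher. KIF20A had 16.4, 16.9, and 28.95 CPM with EGFhigh + EpEX and at most 6.95 CPM with EGFhigh alone, a log2FC of 1.96 (SE 0.42, adjusted p = 0.00393, edgeR). KIF23 had 21.2, 25.3, and 33.5 CPM against at most 8.86 CPM, a log2FC of 1.64 (SE 0.28, adjusted p = 0.000262, edgeR). The same comparison gave 33.5, 48.8, and 58.8 CPM of KIF2C against at most 20.5 CPM (log2FC 1.56) and 72.5, 75.7, and 102 CPM of KIF20B against at most 64.3 CPM (log2FC 0.95). KIFC1 varied most within the combination, at 11.8, 22.5, and 43.7 CPM. The other 6 genes had log2FC values of 0.47 to 1.14 and did not pass. Without 1 of the 6 libraries, 2 to 6 of the 10 were called, and KIF23 and KIF2C were called each time. KIF20A was lost without EGFhigh replicate 1 (adjusted p = 0.0509, edgeR) or combination replicate 2 (adjusted p = 0.0551, edgeR). KIF20B was called without EGFhigh replicate 1 and in none of the other 5 fits, and KIF11, KIF15, and KIF4A were called without that library.

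Against its own control, Fc, the combination at 72 h had lower means for all 10 genes, and none passed, as for all genes tested (0%). The log2FC values ranged from -0.89 for KIF4A to -0.17 for KIF20A, with a median of -0.48 and 3 genes (KIF4A, KIF15, KIF23) at an unadjusted p under 0.05, as were 3.92% of all genes. The direction for KIF20A depended on the control, as its mean was 20.7 CPM with the combination, 23.2 CPM with Fc, and 15.9 CPM in untreated cells. The other genes had lower means with the combination than in untreated cells too. With untreated cells as the control, 0 of the 10 were called. The comparisons of the combination with EGFhigh and of EGFhigh with untreated cells share the EGFhigh libraries. EpEX alone against Fc at 72 h gave log2FC values from -0.64 (KIF15) to 0.48 (KIFC1), with 8 of 10 below 0 and none called (0% of all genes). Fc against untreated cells gave values from -0.26 to 0.68 at 72 h and from -0.36 to 0.65 at 6 h, again with none called (0% at both times). In the 2 comparisons of Fc with untreated cells and in that of EpEX with Fc at 72 h, edgeR left none of the 10 at an unadjusted p under 0.05, against 2.86% of all genes for Fc at 72 h, 2.83% for Fc at 6 h, and 3.61% for EpEX. DESeq2 called none of the 10 in these 3 comparisons or in that of the combination with Fc.

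**Figure D4:**
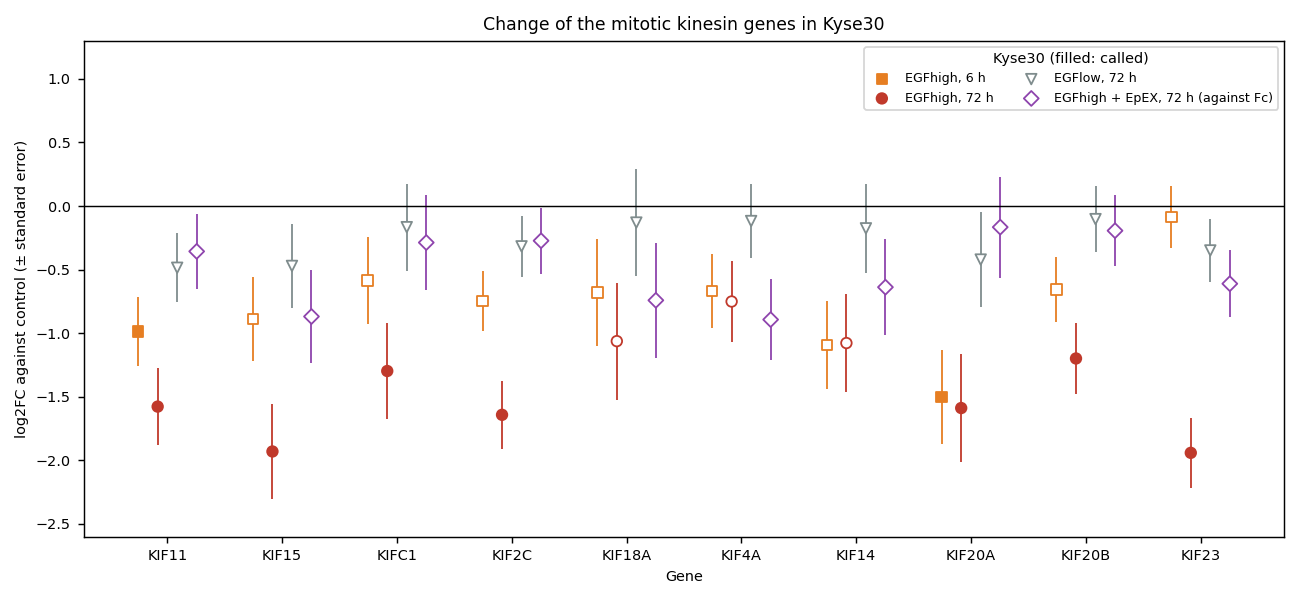
Log2FC of each gene (vertical axis, with standard errors as bars) in Kyse30 for EGFhigh at 6 h (squares), EGFhigh at 72 h (circles), EGFlow at 72 h (triangles), each against untreated cells, and EGFhigh + EpEX at 72 h against Fc (diamonds). Filled symbols passed the test, which holds for 7 of the 10 genes with EGFhigh at 72 h, for KIF11 and KIF20A at 6 h, and for none with EGFlow or the combination at 72 h.

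The early response was read from the 6 h libraries. With EGFhigh (4 libraries against 3 untreated), all 10 means were lower, and KIF20A and KIF11 fell, 2 of the 10 against 1.21% of all genes called lower. KIF20A had 9.29, 11.3, 15.5, and 15.98 CPM with EGFhigh and 30.6, 34.1, and 45.2 CPM without, a log2FC of -1.504 (SE 0.37, adjusted p = 0.0179, edgeR). KIF11 had 21.1, 21.9, 22.1, and 29.8 CPM against 39.5, 49.1, and 53.2 CPM, a log2FC of -0.99 (SE 0.27, adjusted p = 0.0366, edgeR). The treated libraries lay below the untreated ones in 8 of the 10 genes, against 8.07% of all genes. KIF23 was the least changed, at 31.7 to 48.0 CPM with EGFhigh and 32.1 to 49.2 CPM without. The KIF11 call was lost in 6 of 7 fits without a library, all but that without EGFhigh replicate 4, at an adjusted p of up to 0.145 (edgeR). The KIF20A call was lost without untreated replicate 1 or 4 or EGFhigh replicate 3 or 4, at an adjusted p of up to 0.103 (edgeR), and DESeq2 called 4 of the 10, KIF14 and KIF2C included.

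KIF20A was also the gene that EGFlow changed at 6 h, at 11.4, 11.5, 15.6, and 17.6 CPM (log2FC -1.38, SE 0.37, adjusted p = 0.0399, edgeR). It was 1 of the 10, against 0.684% of all genes called lower, and the other 9 had values of -0.95 to -0.14. The call was lost in 6 of 7 fits without a library, all but that without EGFlow replicate 2, at an adjusted p of up to 0.187 (edgeR). EpEX against Fc called none of the 10 and none of all genes lower (0%), with all 10 below 0 and KIF20A at 19.5, 25.6, and 27.5 CPM against 37.0, 39.1, and 47.5 CPM (log2FC -0.77, adjusted p = 0.544, edgeR). At an unadjusted p under 0.05 edgeR left 1 of the 10 (KIF2C), against 9.45% of all genes, and DESeq2 called none. With EGFhigh + EpEX against Fc, 4 of the 10 fell, against 1.51% of all genes. These were KIF20A (log2FC -1.87), KIF18A (-1.54), KIF14 (-1.44), and KIF2C (-1.33). For KIF20A the 4 libraries had 5.35, 7.70, 10.8, and 20.5 CPM. KIF11 and KIFC1 were close to the Fc level, with log2FC values of -0.18 and 0.05, and KIF11 was spread by a replicate 3 of 70.7 CPM among values of 33.2 to 37.9 CPM. KIF20A and KIF2C were called without any 1 of the 7 libraries, at a log2FC of -2.32 to -1.61 for KIF20A. KIF14 was lost without replicate 1 of Fc (adjusted p = 0.118, edgeR) or of the combination (adjusted p = 0.0532, edgeR), and KIF18A was lost in 5 of 7 fits, being called without replicate 3 of either group. With untreated cells as the control, KIF18A was at a log2FC of -0.88 (adjusted p = 0.347, edgeR).

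Whether EGFhigh acted differently at the 2 times was tested as the difference of both effects (interaction in the same fit). KIF23 was called, 1 of the 10 against 0.515% of all genes called lower. Its effect was -0.09 at 6 h and -1.94 at 72 h, a difference of -1.86 (SE 0.37, adjusted p = 0.00406, edgeR), and it was called without any 1 of the 13 libraries, at -2.01 to -1.60. KIF15 (-1.04), KIF2C (-0.90), and KIFC1 (-0.71) came next and did not pass. For KIF20A (-0.09), KIF4A (-0.08), and KIF14 (0.02) the 2 effects were within 0.1 of each other, with standard errors of 0.55, 0.43, and 0.54.

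Untreated Kyse30 cells in serum-free culture were also compared over time. From 0 to 6 h all 10 means were lower at the later time, by 0.21 to 0.68 on the log2 scale, and none passed, as for all genes (0%). By edgeR 2 of the 10 (KIF23 and KIF2C) were at an unadjusted p under 0.05, against 2.31% of all genes, and DESeq2 called none. From 6 to 72 h, KIF4A fell from 133, 89.1, and 87.0 to 54.2, 35.6, and 30.3 CPM (log2FC -1.37, SE 0.32, adjusted p = 0.0147, edgeR). KIF2C fell from 108, 100, and 92.0 to 53.6, 51.8, and 43.4 CPM (log2FC -1.01, SE 0.26, adjusted p = 0.0304, edgeR). These 2 of the 10 compare with 0.775% of all genes called lower. The KIF2C call was lost without any 1 of the 6 libraries, at adjusted p-values of 0.0664 to 0.14 (edgeR). The KIF4A call was lost without untreated 72 h replicate 1 or 3 or untreated 6 h replicate 3, at 0.0867 to 0.145 (adjusted p, edgeR). KIF14 and KIF20A had log2FC values of -1.21 and -1.20 and did not pass. The comparisons at 6 h and over time share the untreated libraries of 6 h.

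In untreated cells at 6 h, 8 of the 10 genes had a lower mean in Kyse30 than in FaDu, and KIF23 passed the test. KIF23 was lower in Kyse30 (32.1, 40.5, and 49.2 CPM) than in FaDu (73.1 and 83.5 CPM), a log2FC of -0.98 (SE 0.26, adjusted p = 0.00329, edgeR). It was 1 of the 10, against 10.4% of all 19634 genes called lower in Kyse30, and the other log2FC values ran from -0.78 (KIF18A) to 0.36 (KIF4A). The KIF23 call was lost without FaDu replicate 3 (adjusted p = 0.0755, edgeR), and with all FaDu libraries in the fit the log2FC was -0.73 (adjusted p = 0.181, edgeR). KIF20B was the most abundant of the 10 in FaDu too, in CPM, with a median of 201 CPM over the 20 libraries.

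In FaDu at 6 h (2 libraries a group), no comparison called any of the 10, against 0.774% of the 16022 genes called lower with EGFhigh, 0.899% with EGFlow, and 1.04% with EpEX. KIF20A had the largest log2FC each time, at -1.24 (SE 0.49), -1.34 (SE 0.49), and -1.37 (SE 0.49). It had 4.57 and 19.8 CPM with EGFhigh, 7.28 and 15.2 CPM with EGFlow, and 7.46 and 15.03 CPM with EpEX, against 23.4 and 33.8 CPM in untreated cells and 25.4 and 33.5 CPM with Fc. The treated libraries lay below the controls in all 3 comparisons, and in each the lower value was that of replicate 3. Without EGFhigh replicate 4 the KIF20A log2FC was -2.64 and passed (adjusted p = 0.0108, edgeR), a fit in which the lone library is assumed to vary like the other groups. KIF11 (-0.61, -0.51, -0.52) and KIF18A (-0.58, -0.69, -0.89) were also lower in mean, again with no overlap of the groups. In all, 5, 6, and 5 of the 10 lay below the controls without overlap, against 20.5, 22.1, and 20.1% of all genes. With EpEX, KIF23 lay above Fc without overlap, as did 19.6% of all genes. It had 70.8 and 80.6 CPM against 62.5 and 64.9 CPM (log2FC 0.25). By edgeR KIF20A, KIF11, and KIF18A were at an unadjusted p under 0.05 each time, joined by KIFC1 with EGFlow and EpEX, against 14.1, 15, and 13.9% of all genes, and DESeq2 called none. The EGFhigh effect at 6 h did not pass a test of difference between the lines for any of the 10 (0.056% of all 19634 genes called lower), with differences of Kyse30 minus FaDu from -0.93 (KIF14) to -0.03 (KIF23). None of the 10 was at an unadjusted p under 0.05 in that test by edgeR, against 4.91% of all genes, and DESeq2 called none.

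At 72 h, FaDu replicate 4 gave 1 library for EGFhigh and 1 for untreated cells, so there is no replicate check among the libraries used. FaDu replicates 1 and 2, which were left out, also hold both groups, and EGFhigh against untreated cells at 72 h was not tested with them. All 10 genes were lower with EGFhigh in that pair, each by more than 0.5 on the log2 scale, as were 30.4% of all genes. The log2 ratios ran from -2.03 (KIF11, 28.9 against 119 CPM) and -1.95 (KIF15, 13.6 against 53.1 CPM) to -0.96 (KIF2C, 41.4 against 80.7 CPM), with a median of -1.30. KIF23 had 20.2 against 43.7 CPM, and KIF20A 5.16 against 18.2 CPM. EGFhigh + EpEX of the same replicate was above EGFhigh for all 10, with log2 ratios of 0.69 (KIF20B) to 1.52 (KIF20A) and 21.3% of all genes above 0.5. EpEX against Fc in replicate 4 gave -0.03 to 0.47, with none of the 10 and 15.4% of all genes below -0.5. Where 2 libraries a group allowed a test, EGFhigh + EpEX against Fc at 72 h, the log2FC values were -0.81 (KIF20A) to -0.19 (KIF14), and none of the 10 passed (0.193% of all genes called lower). By edgeR 3 of the 10 (KIF11, KIF15, and KIFC1) were at an unadjusted p under 0.05, against 6.78% of all genes, and DESeq2 called none. Fc at 72 h against 6 h called none of the 10 (2.88% of all genes called in either direction), the value for KIFC1 being 0.73 (adjusted p = 0.073, edgeR). KIFC1 was the 1 of the 10 at an unadjusted p under 0.05 by edgeR, against 15% of all genes, and was called by DESeq2.

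**Figure D5:**
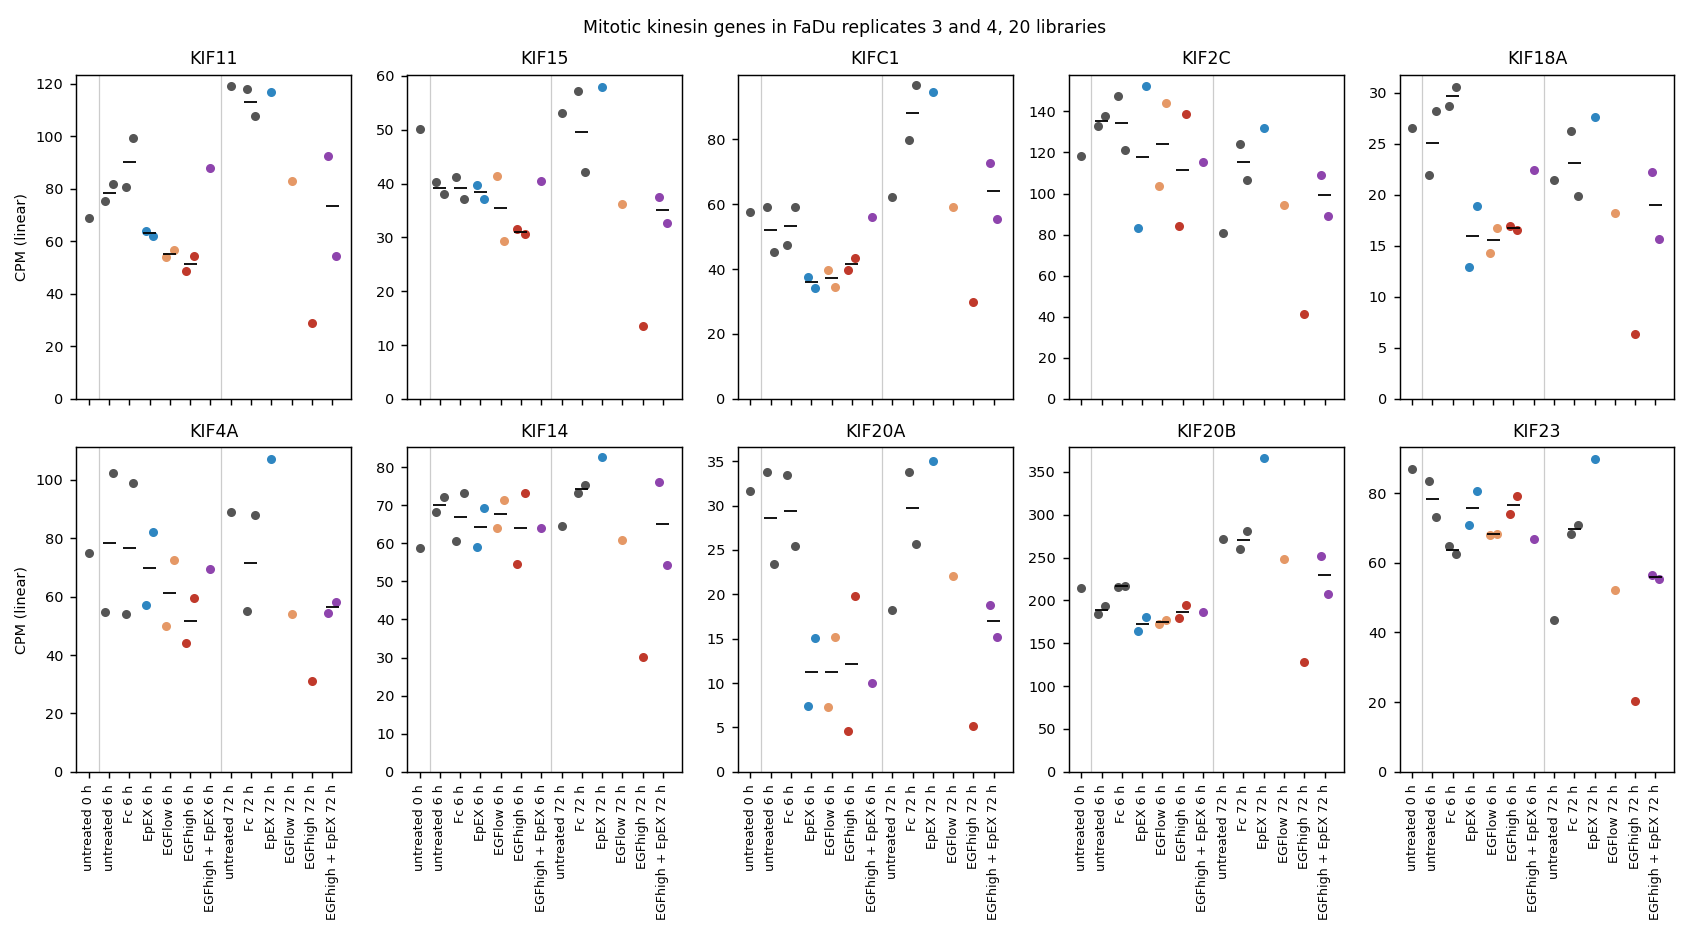
Level of each of the 10 genes in CPM (vertical axes, linear, from 0) in the 20 FaDu libraries of replicates 3 and 4, by condition, with points for libraries and lines for means of 2 libraries. The single library of EGFhigh at 72 h is the lowest for 9 of the 10 genes, and for KIF20A it lies at 5.16 CPM beside the 4.57 CPM of EGFhigh at 6 h, replicate 3.

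The other genes of spindle and cytokinesis were read from lists in the comparison of EGFhigh with untreated Kyse30 at 72 h. Of 22 partners of these motors and spindle proteins, all 22 had a lower mean and 11 fell, with a median log2FC of -0.998. Over all genes tested, 52.0% had a log2FC below 0, 3.16% were called lower, and the median was -0.03. The lowest adjusted p-values belonged to DLGAP5, a microtubule-bundling protein of the spindle (21.6 to 4.35 CPM, log2FC -2.29), and BIRC5, the survivin subunit of the chromosomal passenger complex (log2FC -1.31). They were followed by ASPM of the spindle poles (-1.58), CDCA8 of the passenger complex (-1.22), ANLN, the anillin of the cleavage furrow (-1.35), and TPX2, which activates Aurora A on the spindle (-1.26). Of the other mitotic kinesins (CENPE, KIF18B, KIF22, KIF2A, KIF2B), 4 were tested and none was called by edgeR, with a median log2FC of -0.80. All 4 were at an unadjusted p under 0.05, against 19.4% of all genes. The values were -2.16 for KIF18B (adjusted p = 0.0949, edgeR), -0.93 for CENPE (0.112), -0.67 for KIF22 (0.169), and 0.53 for KIF2A (0.0899). KIF2A, a depolymerase at work outside mitosis as well, was the gene with the positive value, at 58.7 CPM in untreated cells and 84.6 CPM with EGFhigh, and DESeq2 called it and none of the others.

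The kinesins of transport and cilia served as motors outside mitosis. Of 28 on the list, 20 passed the filter on low counts, 7 had lower and 13 higher means with EGFhigh at 72 h, and the median log2FC was 0.30. The 2 that were called, against 3.16% of all genes called lower, were KIF13A, a motor of endosome and melanosome transport (97.9 to 38.0 CPM, log2FC -1.36), and KIF9 (20.6 to 8.66 CPM, log2FC -1.25), whose call was lost in 5 of 6 fits without a library. Of 13 regulators of G2/M transcription, 10 had a lower mean and 4 fell, against the same 3.16% of all genes, with a median log2FC of -0.64. These were MYBL2 (log2FC -1.60) and FOXM1 (-1.25), both activators of these genes, LIN52 (-1.33), a subunit of the MuvB core, and RBBP4 (-0.81), a histone chaperone that also serves other complexes. Without 1 of the 6 libraries, the call of RBBP4 was lost in 5 fits, that of LIN52 in 4, that of FOXM1 in 2, and those of MYBL2 and TPX2 in 1 each.

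Over the 43 Kyse30 libraries, the log2 CPM values of the 10 genes went together, with Pearson's r between 0.48 and 0.89 over the 45 pairs (median 0.74). In the 20 FaDu libraries r ran from 0.24 to 0.89 (median 0.67). KIF2C had the highest mean r with the other 9 in Kyse30 (0.79) and KIFC1 the lowest (0.61). The libraries share conditions and cell line, so these values are a description. The 10242 genes with a mean of at least 5 CPM, the members included, had a median r of 0.02 with the mean of the 10 standardized profiles in Kyse30. Those most like it outside the members were MKI67 (0.93), NUSAP1 (0.93), DEPDC1 (0.93), SMC4 (0.93), CENPF (0.92), CCNB1 (0.92), TPX2 (0.91), CENPE (0.91), CDK1 (0.90), and TOP2A (0.90). NUSAP1 and TPX2 are on the list of partners and CENPE on that of the other mitotic kinesins. In FaDu the same 10 genes had r between 0.69 (SMC4) and 0.97 (NUSAP1). The correlation of the 10 genes with the depth of the library lay between -0.16 and 0.22.

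The positions of the 10 genes (GRCh38, GENCODE release 29) bear on how their reads were assigned. KIF20A (chromosome 5, 138178719 to 138187715) starts within BRD8 and ends within CDC23, both on the opposite strand. KIF2C (chromosome 1, 44739818 to 44767767) overlaps an antisense RNA at its 3′ end. KIF15 (chromosome 3, 44761717 to 44873376) contains TMEM42 on the same strand, and KIF23 (chromosome 15, 69414246 to 69448427) overlaps an antisense RNA at its start. On the opposite strand, KIF18A overlaps METTL15 and KIF4A overlaps PDZD11, each at its start. KIF11, KIF23, KIF4A, and KIFC1 each contain a processed pseudogene on the opposite strand. The strand setting of the counting is not given in the sources used here, so reads of such neighbors cannot be told apart where they overlap. The other positions are chromosome 10, 92593286 to 92655395 for KIF11, chromosome 10, 89701610 to 89774939 for KIF20B, chromosome 1, 200551497 to 200620734 for KIF14, and chromosome 11, 28020620 to 28108308 for KIF18A. KIF4A lies on chromosome X, 70290090 to 70420832, and KIFC1 on chromosome 6, 33391536 to 33409924.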

How the data were processed

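RNA from cells treated in culture was sequenced from the 3′ end (QuantSeq), and the authors deposited raw read counts per gene for each library, made with STAR and HTSeq on GRCh38 according to the submitters' processing notes. Versions, the annotation, and the strand setting are not given in the sources used here. Each library listed 58395 genes, and reads given to no gene (33.7 to 52.1% in Kyse30, 50.3 to 60.3% in FaDu replicates 3 and 4) stayed out of library sizes. Groups were taken from the labels. Symbols came from GENCODE release 29 and matched 58275 identifiers. Deposited counts were tested with edgeR 4.0.16 (R 4.3.3), using filterByExpr (minimum count 10, minimum total 15), TMM factors, and a quasi-likelihood test in 1 fit over all Kyse30 groups (15350 genes), 1 over the FaDu groups of replicates 3 and 4 (16022), and 1 over both lines (19634). Benjamini-Hochberg adjustment covered all genes tested in each of 22 comparisons. A gene was called, and is written as having risen or fallen, where its adjusted p did not exceed 0.05 and its log2 fold change (log2FC) was beyond 0.5 in either direction. CPM were counts per 1000000 of the library size of the fit of the cell line, which is the reads on genes past the filter times the TMM factor. Log2 CPM used a prior count of 2, and values of single pairs of libraries are on that scale.

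The 10 genes are described in every comparison. From other lists, genes called with EGFhigh at 72 h are named, at most 6 per list in order of adjusted p, and the 10 genes most like the members by Pearson's r among those with a mean of at least 5 CPM. EGFR, KRT17, and CD68 are from the marker lists, as are the other markers named. CENPE, KIF18B, KIF22, and KIF2A were named after their values were seen. The members and lists were chosen with earlier results of these data known. FaDu replicates 1 and 2 (21 libraries) entered an alternative only. No 2 replicates of a group differed by as little as sampling noise (lowest chi-square per degree of freedom 8.45 in Kyse30 and 10.8 in FaDu). Counts were simulated with changes in genes drawn at random from all that passed the filter, at any level. For EGFhigh in Kyse30 at 72 h (14840 genes), the test recovered 19.4% of 98 genes changed by 1 on the log2 scale. Of 98 changed by 1.5 it recovered 39.8%, with 2 false calls. For EGFhigh in FaDu at 6 h (15092 genes) it recovered 18.6% of 97 and 45.2% of 93, with 1 false call. These shares are not the power for the 10 genes. Alternatives were DESeq2 1.42.0, RLE factors, no filter on low counts, a block for the replicate number, fits of the compared groups alone, another control group, all FaDu libraries, and each library left out in turn.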

Additional observations from a re-analysis of the deposited data

Results flagged for a closer look

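In the Kyse30 groups of 4 libraries, 5 of 40 sets of values of the 10 genes held a library that stood apart from the other 3 by Dixon's test, which chance gives for about 1 in 20. KIF11 was at 29.8 CPM in EGFhigh replicate 4 at 6 h, beside 21.1 to 22.1 CPM in the other 3. KIF2C was at 73.8 CPM in EGFhigh replicate 1 at 6 h, beside 53.6 to 56.5 CPM. KIF11 was at 70.7 CPM in EGFhigh + EpEX replicate 3 at 6 h, beside 33.2 to 37.9 CPM. KIF15 was at 7.62 CPM in EGFlow replicate 3 at 72 h, beside 14.1 to 14.6 CPM. KIFC1 was at 45.1 CPM in EGFlow replicate 2 at 72 h, beside 29.4 to 31.1 CPM.

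The EGFhigh effect on KIF23 differed between the times, by -1.86 on the log2 scale for 72 h minus 6 h (adjusted p = 0.00406, edgeR, interaction term).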

How the results depend on the processing

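Of 334 values of called genes recomputed under an alternative, 0 changed sign, and of 2376 values of genes not called, 116 did. RLE factors changed no call of the 10 genes. DESeq2, no filter, and pooled controls lost no call among the 10 genes and added some, at 6 of 193, 10 of 193, and 10 of 106 uncalled values. With only the groups compared in the fit, which leaves fewer libraries to estimate the spread, 11 of 27 calls were lost. The number of the 10 called then was 3 for EGFhigh at 72 h, 1 against EGFlow, 2 for the combination against EGFhigh, 4 for EGFhigh at 6 h, 3 for EGFlow at 6 h, 4 for untreated cells from 6 to 72 h, 1 for EGFlow in FaDu, and 2 for Kyse30 against FaDu. DESeq2 called 4 for EGFhigh at 6 h and 1 for Fc over time in FaDu. Untreated and Fc libraries pooled as control gave 5 for EGFhigh and 3 for EGFlow at 6 h in Kyse30 and 1 for each in FaDu. No filter gave 4 for untreated cells from 6 to 72 h and 1 each for EGFhigh, EGFlow, and EpEX in FaDu. All FaDu libraries together gave 0 for Kyse30 against FaDu. The cause of these differences was not tested.

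Same-numbered libraries deviated together weakly, with a mean r of 0.0633 in Kyse30 and 0.0713 in FaDu. Libraries of different numbers had a mean r of -0.0216 and -0.0713. Same-numbered pairs ran from -0.131 to 0.289 in Kyse30 and from -0.0362 to 0.241 in FaDu, with 29.5% and 33.3% over 0.1. The main fit did not take the numbers as pairing, so a weak shared effect of the replicate number stayed in its spread. With the replicate block, 4 of the 10 were called for EGFhigh and 2 for EGFlow at 6 h, 1 for Fc over time in FaDu, and 2 for Kyse30 against FaDu, and KIF20B was lost for the combination against EGFhigh (log2FC 0.77, adjusted p = 0.0754, edgeR). The block left the number called in the other comparisons within 1.5 times. Under it, uncalled values of the EGFhigh effect at 72 h minus 6 h changed sign, to 0.043 for KIF18A, 0.10 for KIF20A, and 0.074 for KIF4A. Of uncalled values, 7 of 106 changed sign with pooled controls. With untreated cells as the control for EpEX and the combination, 10 of 36 did. Among these was KIFC1 for the combination against Fc at 6 h, with pooled controls (-0.070) and untreated controls (-0.18). With all FaDu libraries, Kyse30 against FaDu changed sign for KIF14 (0.11) and KIF20A (-0.28).

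Leaving out 1 library at a time gave 5 to 9 of the 10 called for EGFhigh at 72 h, 2 to 6 for EGFhigh against EGFlow, 2 to 6 for the combination against EGFhigh, 0 to 1 for EGFhigh and for EGFlow at 6 h, 2 to 4 for the combination against Fc at 6 h, and 0 to 1 for untreated cells from 6 to 72 h. The range was 0 to 1 for EGFhigh in FaDu and for Kyse30 against FaDu. Where such a fit left a FaDu group with 1 library, that library was assumed to vary like the other groups. Of 220 pairs of 1 of the 10 genes and a comparison, 48 changed sign in at least 1 such fit, none of them called. Among them were KIF23 with EGFhigh at 6 h (-0.23 to 0.10) and EGFlow at 6 h (-0.28 to 0.040), the EGFhigh effect at 72 h minus 6 h in KIF14 (-0.41 to 0.35), KIF20A (-0.31 to 0.27), and KIF4A (-0.90 to 0.20), KIFC1 in Kyse30 against FaDu (-0.26 to 0.12), and KIF20A for the combination against Fc at 72 h (-0.46 to 0.44).

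Counts over all genes moved more. They were 391 for EGFhigh at 6 h (673 by DESeq2, 636 with the block, 1105 with pooled controls), 230 for EGFlow at 6 h (413, 417, and 776), 694 for the combination against Fc at 6 h (1112 by DESeq2, 209 with only these groups), 4 for EpEX at 6 h (83 by DESeq2, 105 with no filter), 238 for untreated cells from 6 to 72 h (479 by DESeq2), and 155 for the EGFhigh effect at 72 h minus 6 h (304 by DESeq2, 401 with no filter). For EGFhigh at 72 h they were 951 (1628 with pooled controls, 502 with only these groups), for EGFhigh against EGFlow 573 (241 with only these groups), and for the combination against EGFhigh 550 (846 by DESeq2, 194 with only these groups). With all FaDu libraries, the 491, 553, 560, 131, and 462 genes called in the 5 FaDu comparisons became 0, and the 4400 of Kyse30 against FaDu became 953. Depth limits KIF15 and KIF18A most, which had 9 and 14 reads in their lowest Kyse30 library.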
